A study of Mus musculus with 8 samples.

Results

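Mest, Copg2, Peg10 and Pon2 lie in a pair of imprinted domains of proximal mouse chromosome 6. Their transcripts were followed in embryonic stem (ES) cells whose genomes came from the father alone, the mother alone, or both. All probes that the annotation of the array assigns to these 4 genes were taken, which gave 5 probes of 25697 in all. They were 3 probes of Mest, 1 of Peg10 and 1 of Pon2. No probe in that annotation carries the name Copg2, so 3 of the 4 genes were measured. Probes that the annotation does not cover have no name here and may include others of these genes. All 5 probes passed the filter on dim probes, which kept 12300, among them 11262 of the 12145 probes with a name.

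The cells were androgenetic (both genomes paternal, 3 arrays from passages 6, 7 and 8), parthenogenetic (both genomes maternal, 2 arrays from passages 6 and 7) and fertilized (1 genome from each parent, 3 arrays from passages 6, 7 and 8). All groups were of the strain B6129F1. The labels give both sexes and both X and Y for the androgenetic and the fertilized cells, and female alone for the parthenogenetic cells. The labels give passages as repeats and do not say that they were separate lines, so p-values measure only the spread between passages.

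Imprinted genes keep a mark, set in egg or sperm, that leaves 1 parental copy active. Mest (Peg1), which encodes an enzyme-like protein of the endoplasmic reticulum, and Peg10, a domesticated retrotransposon gene that the mouse placenta needs, are read from the paternal copy. Copg2, a subunit of the COPI vesicle coat whose gene meets Mest tail to tail, and Pon2, an intracellular paraoxonase, have been described in mouse as favouring the maternal copy in some tissues. The Mest promoter of the maternal copy is methylated at its CpG sites, and the zinc finger protein ZFP57 protects such marks by binding methylated TGCCGC.

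To show the CpG sites at the starts of the members, the 250 bases before the starts that RefSeq gives (GRCm38.p6) are shown for Mest, Copg2 and Pon2, 3 of the 4 genes with an entry. CpG sites are in capitals. For Mest, the outermost start and one 4544 bases downstream are shown. They lie at chr6:30733256-30733505 and chr6:30737800-30738049, plus strand. The windows of Copg2 (chr6:30896795-30897044) and Pon2 (chr6:5298341-5298590) are on the minus strand.
Mest, outermost start: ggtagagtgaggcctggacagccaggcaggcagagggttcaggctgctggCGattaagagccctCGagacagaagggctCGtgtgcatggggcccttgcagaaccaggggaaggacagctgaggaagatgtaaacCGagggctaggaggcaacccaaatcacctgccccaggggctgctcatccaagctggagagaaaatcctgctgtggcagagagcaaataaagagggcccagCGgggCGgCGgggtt
Mest, downstream start: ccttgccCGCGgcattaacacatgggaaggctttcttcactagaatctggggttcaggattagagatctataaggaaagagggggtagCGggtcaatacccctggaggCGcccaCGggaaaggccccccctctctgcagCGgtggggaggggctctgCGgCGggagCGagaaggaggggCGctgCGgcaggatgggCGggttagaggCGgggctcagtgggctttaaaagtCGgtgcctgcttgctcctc
Copg2: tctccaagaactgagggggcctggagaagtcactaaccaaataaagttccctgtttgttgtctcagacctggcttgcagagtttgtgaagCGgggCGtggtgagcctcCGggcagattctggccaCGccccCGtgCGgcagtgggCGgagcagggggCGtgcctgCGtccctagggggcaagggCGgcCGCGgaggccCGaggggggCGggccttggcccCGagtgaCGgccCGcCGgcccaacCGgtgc
Pon2: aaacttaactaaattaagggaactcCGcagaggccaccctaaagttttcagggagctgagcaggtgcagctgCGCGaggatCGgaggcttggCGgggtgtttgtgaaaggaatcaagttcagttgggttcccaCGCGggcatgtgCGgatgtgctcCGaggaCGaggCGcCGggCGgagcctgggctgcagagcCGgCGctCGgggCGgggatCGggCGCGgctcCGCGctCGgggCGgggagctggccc
The outermost Mest window held 7 CpG sites and the downstream one 14, against a median of 6 over all 32851 windows of this length. Copg2 had 19 and Pon2 24, more than 80.3% and 88% of windows. TGCCGC, searched on both strands (also as GCGGCA), occurred 2 times before the downstream Mest start, with first bases 242 and 67 bases upstream, and 1 time before Copg2, 116 bases upstream. It was not found before the outermost Mest start or before Pon2. Of all windows, 8.68% held it, and a match is a description of letters, not of binding.

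Mest was far brighter in androgenetic cells, and close to the limit of detection in parthenogenetic cells. A probe counts as detected where its detection p, its signal set against the negative controls of the same array, is under 0.01. Levels are background-corrected, quantile-normalized signals on the log2 scale, where a step of 1 is 2-fold. The brightest Mest probe (ILMN_2846904) read 12.27, 11.99 and 12.12 in androgenetic cells, 6.75 and 6.77 in parthenogenetic cells, and 9.88, 9.60 and 10.16 in fertilized cells. No group overlapped another, and the parthenogenetic values exceeded by little the lowest detected level of those arrays, 6.60 and 6.65. Before normalization the same probe had deposited signals of 6209, 4933 and 5095 in androgenetic, 203 and 163 in parthenogenetic, and 883, 712 and 1234 in fertilized cells.

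The other probes of Mest gave the same order. Probe ILMN_2642417 read 11.74, 11.64 and 11.52 in androgenetic, 6.55 and 5.69 in parthenogenetic, and 8.89, 9.13 and 9.23 in fertilized cells. Probe ILMN_2642418 read 10.43, 10.64 and 10.59 in androgenetic, 5.44 and 5.77 in parthenogenetic, and 8.02, 7.82 and 8.08 in fertilized cells. Neither was detected on a parthenogenetic array, with detection p-values of 0.0125 and 0.108 for the first and 0.157 and 0.0865 for the second. The brightest probe passed there with 0.00627 and 0.00501, so detection of Mest in parthenogenetic cells rested on 1 probe of 3.

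Peg10 had the same order of groups as Mest. Its probe (ILMN_3037645) read 10.43, 10.37 and 10.52 in androgenetic cells, 6.46 and 6.48 in parthenogenetic cells, and 7.34, 7.49 and 7.60 in fertilized cells. The androgenetic arrays stood far above the rest and no groups overlapped. Parthenogenetic arrays did not detect Peg10 (detection p-values of 0.0188 and 0.0175). Fertilized arrays did, at levels above the 6.60 to 6.85 where detection began on them.

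Pon2 was ordered differently, with fertilized cells lowest. The probe (ILMN_1233836) read 12.02, 12.04 and 11.97 in androgenetic cells, 9.75 and 9.67 in parthenogenetic cells, and 8.58, 8.86 and 8.73 in fertilized cells. All 8 arrays detected it, the groups did not overlap, and both kinds of uniparental cells were above fertilized cells.

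**Figure D1:**
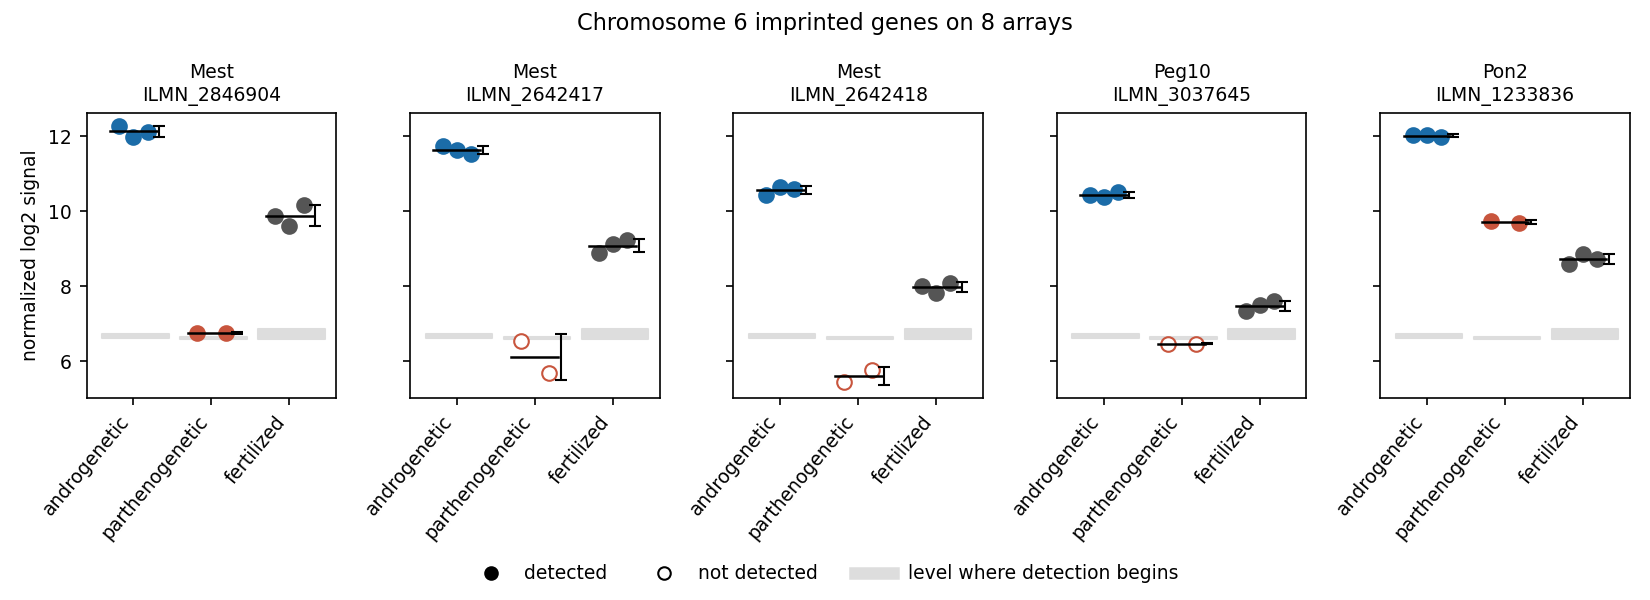
Normalized log2 signal of the 5 probes of Mest, Peg10 and Pon2 on each array, by group (horizontal line, mean; bar, SD; open points, not detected; grey band, range over arrays of the level where detection begins). Parthenogenetic arrays are lowest for Mest and Peg10, at 5.44 to 6.77, and between the other groups for Pon2, at 9.67 and 9.75.

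The first comparison asked how expression differed when both genomes were paternal. Mest, Peg10 and Pon2 all rose in androgenetic against fertilized cells. Mest averaged 12.13 ± 0.14 in androgenetic and 9.88 ± 0.28 in fertilized cells (log2 signal, SD, n = 3 each). That is 4.75-fold higher, with a log2 fold change of 2.25 ± 0.14 (SE), a 95% confidence interval of 1.93 to 2.57 and adjusted p = 9.12e-07 (limma). The dimmer Mest probes were 5.86-fold and 5.99-fold higher. Peg10 averaged 10.44 ± 0.077 in androgenetic and 7.48 ± 0.13 in fertilized cells (SD, n = 3 each), which is 7.78-fold higher (log2 fold change 2.96, interval 2.76 to 3.16, adjusted p = 1.23e-08).

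Pon2 had the largest rise of the 3 genes. It averaged 12.01 ± 0.036 in androgenetic and 8.72 ± 0.14 in fertilized cells (SD, n = 3 each), 9.76-fold higher (log2 fold change 3.29, interval 3.09 to 3.48, adjusted p = 7.28e-09). Over the 8221 named genes, each by its brightest probe, Pon2 ranked 34, Peg10 57 and Mest 179 from the top by fitted change. All 5 member probes passed in the upward direction, where 36.2% of all kept probes did, and all were at least 2-fold higher, where 14.7% were. The intervals of all 5 probes lay wholly above a 2-fold rise. At passages 6, 7 and 8 taken alone, the log2 difference was 2.39, 2.39 and 1.96 for the brightest Mest probe, 3.08, 2.88 and 2.92 for Peg10, and 3.44, 3.18 and 3.24 for Pon2.

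Androgenetic cells also differed in cell type markers. Over all named genes 35.4% were higher and 39.3% lower than in fertilized cells. All 12 listed ES cell markers were lower, with summed linear signals of 41000 to 43800 in androgenetic and 122000 to 129000 in fertilized cells. Dppa5a, the brightest of them at mean log2 levels of 14.70 and 15.85, weighed most in these sums. Fgf4 was not detected on any androgenetic array, and Pou5f1 and Nanog were detected on all. Of 9 measured fibroblast markers, out of 20 listed, 8 were higher and 1 (Thy1) lower. Their summed signal was 20100 to 21300 in androgenetic, 8710 to 9760 in parthenogenetic and 6970 to 7110 in fertilized cells. Sparc was the brightest of them in each group, at mean log2 levels of 13.12, 12.33 and 12.30 in that order. Col1a1 and Lox were not detected in fertilized cells. Outside the androgenetic group Col1a1 and Pdgfra were each detected on 1 array, so they passed the filter on dim probes through that group.

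Of 8 measured trophoblast markers, out of 16 listed, 5 were higher and 2, Phlda2 and Ascl2, lower in androgenetic cells. Over all named genes the shares were 35.4% higher and 39.3% lower. Phlda2 was 4.94-fold lower. The summed signal of the 8 was 80600 to 86300 in androgenetic, 29600 to 29900 in parthenogenetic and 26200 to 27700 in fertilized cells. In androgenetic cells most of that sum came from the keratin genes Krt8 and Krt18. Their log2 levels were 15.68 and 14.45 in androgenetic and 13.26 and 12.25 in fertilized cells. Eomes was not detected in parthenogenetic or fertilized cells, so it passed the filter on dim probes through the androgenetic group. Ascl2 was not detected in androgenetic cells. In parthenogenetic against fertilized cells, 5 fibroblast markers were higher and 1 lower, 3 trophoblast markers higher and 1 lower, and 6 ES cell markers higher and 2 lower, beside 20.3% of named genes in each direction. The fibroblast calls include Col1a1 and Lox, undetected in fertilized cells and at mean log2 levels of 6.66 and 6.69 in parthenogenetic cells. The lower one, Pdgfra, was undetected in parthenogenetic cells and detected on 1 fertilized array. The calls of Col1a1, Lox and Pdgfra lie at the detection limit, and no fold is given for them. The other higher fibroblast calls were Col5a1 (2.92-fold, limma adjusted p = 4.96e-05), Vim (2.08-fold, 0.000166) and Fbln2 (1.94-fold, 9.99e-05). Col5a1 and Vim were detected on all arrays, and Fbln2 on 2 of the 3 fertilized arrays. The trophoblast calls include Eomes, undetected in both groups, and Gata2, which did not pass without background correction (adjusted p = 0.0694). With median scaling 4 ES cell markers were higher, Sox2 (adjusted p = 0.0804) and Esrrb (adjusted p = 0.05) no longer passing. Summed ES cell marker signal in parthenogenetic cells was 137000 to 138000. The part of these shifts in the differences of Mest, Peg10 and Pon2 was not tested, and in such bulk RNA fewer cells of a type and less RNA per cell cannot be told apart.

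**Figure D2:**
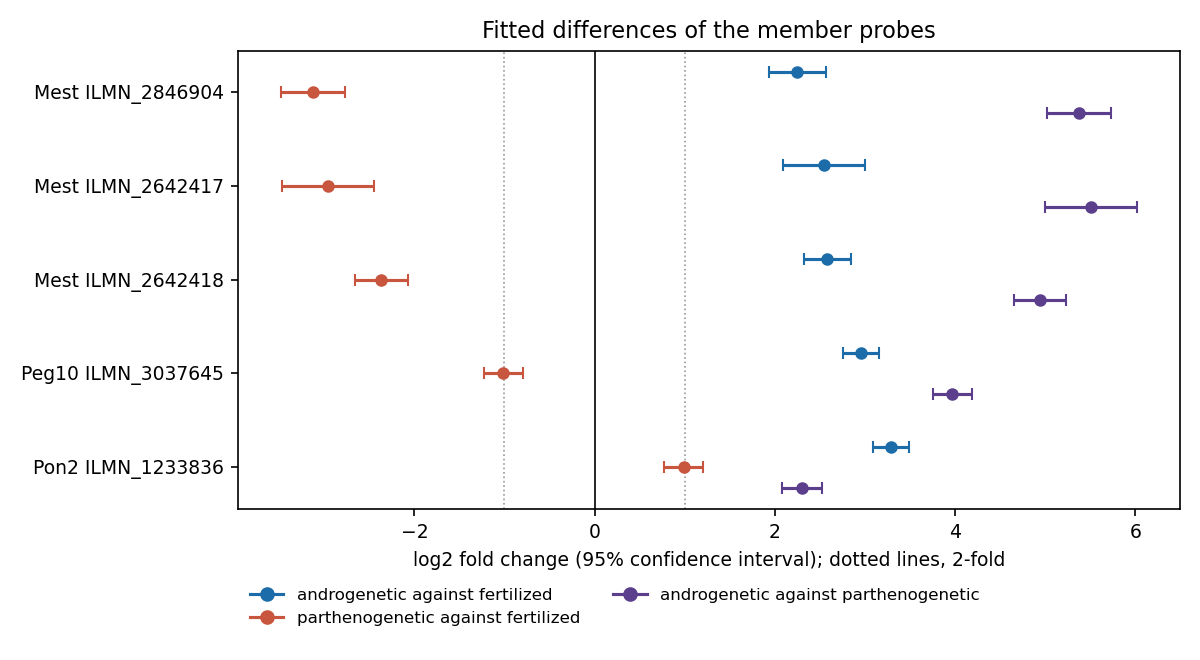
Fitted log2 fold change of each of the 5 probes in the 3 comparisons (points) with 95% confidence intervals (bars). Against fertilized cells the brightest Mest probe is at 2.25 in androgenetic and -3.12 in parthenogenetic cells, Peg10 likewise has opposite signs, and Pon2 is positive in both at 3.29 and 0.99.

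The second comparison asked how expression differed when both genomes were maternal. Mest and Peg10 fell in parthenogenetic against fertilized cells and Pon2 rose. The brightest Mest probe averaged 6.76 ± 0.014 in parthenogenetic (SD, n = 2) and 9.88 ± 0.28 in fertilized cells (SD, n = 3). It was 8.72-fold lower (log2 fold change -3.12 ± 0.15 SE, interval -3.48 to -2.77, limma adjusted p = 4.42e-06), the rank of 5 among the 8221 genes from the bottom. Without background correction the log2 change was -2.40. The dimmer probes, undetected in parthenogenetic cells, had bounds set by the level where detection begins there: ILMN_2642417 was lower by at least 5.48-fold, and ILMN_2642418 by at least 2.54-fold. These bounds belong to this normalization. Without background correction the log2 changes of these probes were -2.02 and -1.40.

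Peg10 was lower in parthenogenetic cells, with log2 levels of 6.47 ± 0.012 (SD, n = 2) against 7.48 ± 0.13 in fertilized cells (SD, n = 3; limma adjusted p = 0.000105). The bound was at least 1.80-fold in this normalization alone. Its fitted log2 change was -1.01, and it was -0.60 without background correction. Pon2 averaged 9.71 ± 0.056 in parthenogenetic (SD, n = 2) and 8.72 ± 0.14 in fertilized cells (SD, n = 3), and was 1.98-fold higher (log2 fold change 0.99, interval 0.77 to 1.21, limma adjusted p = 0.000121). Of the 5 probes 4 passed downward, where 20% of all kept probes did, and 1 upward, where 19.7% did. At passages 6 and 7 the log2 difference was -3.13 and -2.84 for the brightest Mest probe and 1.17 and 0.81 for Pon2.

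The third comparison set both uniparental kinds against each other. It is also the direct test of whether their differences from fertilized cells, which share the fertilized arrays, were unequal. The brightest Mest probe was 41.4-fold higher in androgenetic than in parthenogenetic cells (log2 fold change 5.37, interval 5.02 to 5.73, adjusted p = 1.75e-08). That change stood at rank 5 of 8221 genes, and it was 4.55 on the log2 scale without background correction. Peg10 was at least 14-fold higher in this normalization (limma adjusted p = 8.30e-09), a bound since parthenogenetic arrays did not detect it. Its fitted log2 change was 3.97, and it was 3.08 without background correction. Pon2 was 4.92-fold higher (log2 fold change 2.30, interval 2.08 to 2.52, adjusted p = 1.22e-07), at rank 153. All 5 probes passed upward, where 35.2% of kept probes did.

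The genes around the members were taken in RefSeq order, 15 protein-coding genes on each side, to see how far the differences reached along the chromosome. In the 32 genes around Mest and Copg2, 14 besides Mest were measured. In androgenetic against fertilized cells 7 of them rose and 3 fell, or 71.4% called, beside 74.7% of all named genes. None approached Mest: their log2 changes ran from -0.93 to 1.07. Cep41, a centrosomal protein gene next to Mest, fell by 0.48 (adjusted p = 0.00381), with levels of 8.04 to 8.36 in androgenetic and 8.47 to 8.76 in fertilized cells. Nrf1, a regulator of mitochondrial genes, rose by 1.07 and Tmem209 fell by 0.93. Podxl, which encodes a surface sialomucin, rose by 0.66, and Mkln1 did not pass (0.07, adjusted p = 0.375).

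In parthenogenetic against fertilized cells 1 of those 14 genes rose and 3 fell, or 28.6% called beside 40.6% of all named genes. Slc35b4, a nucleotide sugar transporter gene, rose by 0.60 (adjusted p = 0.000461). Akr1b8, an aldo-keto reductase gene, fell by 0.72 (adjusted p = 0.00214) and Podxl by 0.47 (adjusted p = 0.0240). Zc3hc1 fell by 0.27 by its brightest probe (adjusted p = 0.0291), and its other 3 probes did not pass (adjusted p = 0.111, 0.224 and 0.129). Cep41 stood at 0.22 (adjusted p = 0.193). In androgenetic against parthenogenetic cells 9 rose and 3 fell, or 85.7% called beside 71.1%, and their log2 changes ran from -0.96 to 1.13, against 5.37 for Mest.

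Around Peg10 and Pon2, 36 genes were in order and 12 besides the members were measured. All 12 passed in androgenetic against fertilized cells, 5 higher and 7 lower, a share of 100% beside 74.7% of all named genes. Ppp1r9a, which lies between Peg10 and Pon2 and encodes the actin-binding protein neurabin, fell in androgenetic cells, where both members rose. It read 9.06 to 9.17 in androgenetic, 10.38 and 10.55 in parthenogenetic and 10.14 to 10.17 in fertilized cells. It was thus 2.09-fold lower in androgenetic cells (adjusted p = 2.24e-06) and 1.23-fold higher in parthenogenetic cells (adjusted p = 0.0224, or 0.0803 with median scaling in place of quantile normalization). Ppp1r9a has been described in mouse as favouring the maternal copy in some tissues.

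Beyond Pon2, Pdk4, a kinase that shuts off pyruvate dehydrogenase, was not detected in androgenetic cells and was at least 3.19-fold lower than in fertilized cells. Slc25a13, a mitochondrial aspartate-glutamate carrier, was by its brightest probe also undetected in androgenetic cells and lower by at least 1.83-fold. Its other, dimmer probe did not pass (log2 change -0.14, limma adjusted p = 0.663). Mios fell by 1.40 on the log2 scale. On the other side, Vps50 rose by 0.93 and Bet1, a vesicle fusion protein gene, by 0.53. Samd9l, an interferon-induced gene, was undetected in fertilized cells, and was higher by at least 1.31-fold in androgenetic cells and by at least 2.68-fold in parthenogenetic cells. Sem1 (0.65), Sdhaf3 (-0.59), Asns (-0.81), C1galt1 (0.30) and Rpa3 (-0.39) also passed (log2 changes in brackets). In parthenogenetic against fertilized cells 3 of the 12 rose and 4 fell, or 58.3% called beside 40.6%. In androgenetic against parthenogenetic cells 3 rose and 6 fell, or 75% beside 71.1%. Over the other 389 measured genes of chromosome 6, 74.8% were called in androgenetic against fertilized cells, with a median log2 change of -0.034.

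**Figure D3:**
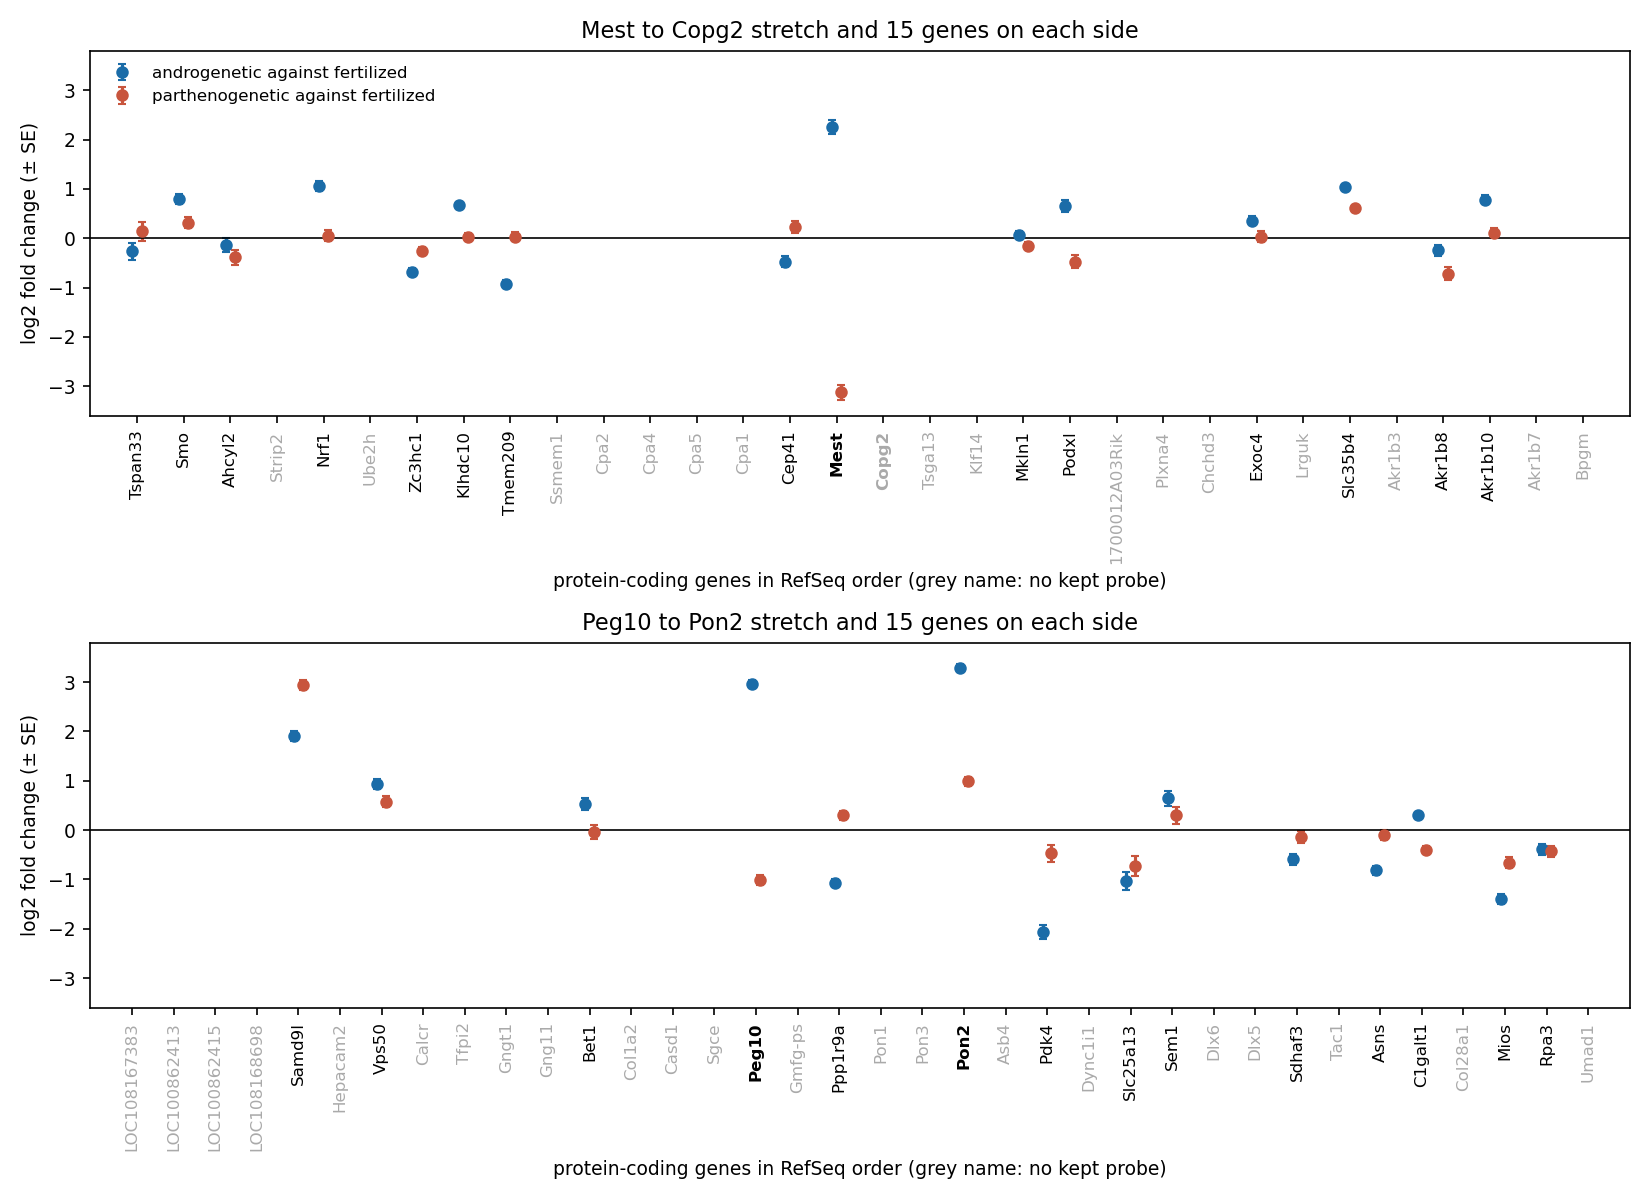
Log2 fold change (± SE) against fertilized cells of androgenetic and of parthenogenetic cells, for genes in RefSeq order around Mest and Copg2 (top) and around Peg10 and Pon2 (bottom); grey names had no kept probe. Mest at 2.25 and -3.12 stands apart from its measured neighbours, and Ppp1r9a at -1.06 lies between Peg10 at 2.96 and Pon2 at 3.29.

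Copg2 itself was not measured, and the rest of the COPI coat, which carries vesicles from the Golgi back to the endoplasmic reticulum, was examined with its Arf1 cycle. Of 15 measured genes out of 19 listed, 9 rose and 2 fell in androgenetic against fertilized cells, beside 35.4% higher and 39.3% lower over all named genes. The median log2 change was 0.41, against -0.051 for all named genes. The coat subunits were divided. Copa rose by 0.70 and Copg1, the paralogue of Copg2, by 0.52 (adjusted p = 0.0382). Copb2 (0.11), Arcn1 (-0.33) and Copz1 (-0.04) did not pass. Cope fell by 0.30 (adjusted p = 0.0436, or 0.0571 with median scaling). Copz2, an alternative zeta subunit, was 3.55-fold lower, at 8.17 to 8.41 in androgenetic and 9.92 to 10.28 in fertilized cells.

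Among the other COPI genes, Arfgap1 and Arfgap2, which switch Arf1 off, were 2.27-fold and 1.87-fold higher, and the cargo receptors Tmed2 and Tmed10 1.97-fold and 1.76-fold higher. The dimmer Arfgap1 probes had smaller log2 changes, 0.53 and 0.59, and the second did not pass (limma adjusted p = 0.0528). In parthenogenetic against fertilized cells 0 of the 15 rose and 2 fell in limma's test, beside 20.3% in each direction over all named genes. At an unadjusted p under 0.05, 1 would be higher and 3 lower. Arfgap1 had the highest value, 0.31 (adjusted p = 0.0574), and passed without background correction (adjusted p = 0.0473) and in the authors' log2 values (adjusted p = 0.0499). Its other probes, ILMN_2700126 and ILMN_2908547, had 0.006 and 0.25 and did not pass (limma adjusted p = 0.979 and 0.493). Copg1 was not called by its brightest probe (-0.095, limma adjusted p = 0.758). Its probes ILMN_3074952 and ILMN_1233848 did rise, by 1.13 and 1.03 (limma adjusted p = 9.59e-05 and 0.00154). Its probe ILMN_2596412 did not pass (0.059, limma adjusted p = 0.671). Copz2 was 2.26-fold lower (adjusted p = 0.000154) and Arcn1 1.58-fold lower (adjusted p = 0.0311). With median scaling 4 of the 15 fell, Copb2 and Tmed10 being added. In androgenetic against parthenogenetic cells 9 rose and 1 fell, beside 34% and 37.1%.

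**Figure D4:**
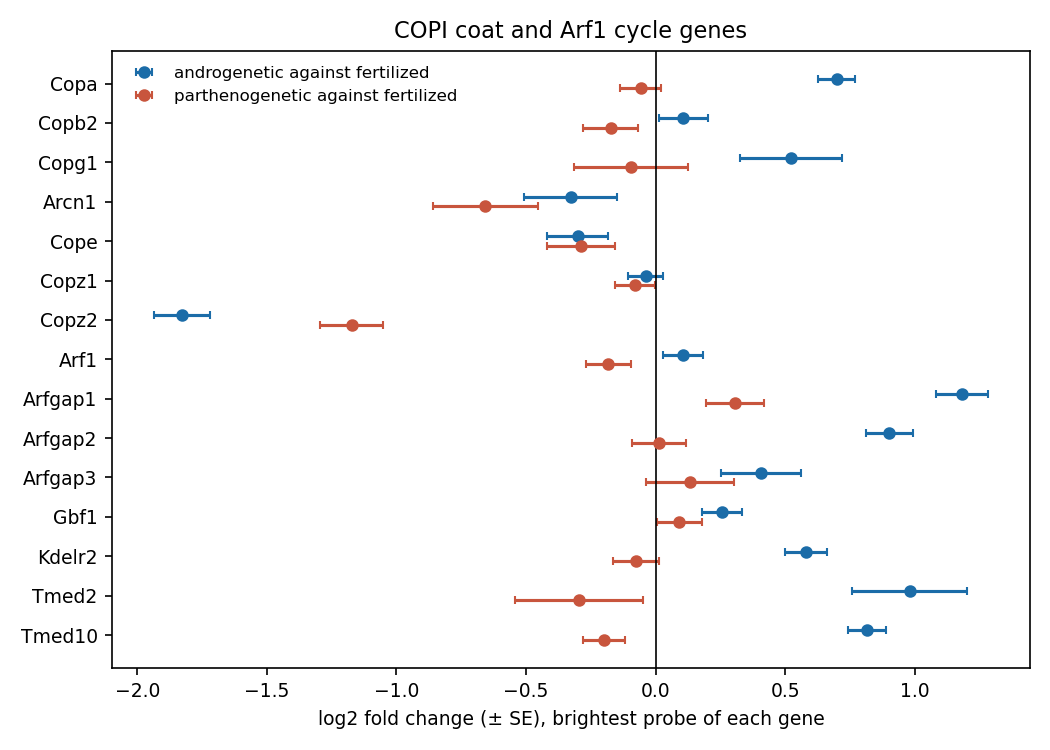
Log2 fold change (± SE) against fertilized cells of androgenetic and of parthenogenetic cells for 15 COPI coat and Arf1 cycle genes, each by its brightest probe. Copz2 is lowest in both, at -1.83 and -1.17, and Arfgap1 is highest in both, at 1.18 and 0.31.

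Peg10 belongs to a family of genes that descend from the Gag gene of retrotransposons, 5 of which were measured out of 20 listed names. In androgenetic against fertilized cells 4 rose, Peg10 among them, and 1 fell, beside 35.4% higher and 39.3% lower over all named genes. Ldoc1 was 2.05-fold lower. Rtl6 rose by 0.22 (adjusted p = 0.0215). Rtl8a and Rtl8b, near-identical copies whose probes may not be specific, were detected in androgenetic cells alone and so passed the filter on dim probes through that group. Rtl8a was higher there by at least 3.15-fold and Rtl8b by at least 1.42-fold. In parthenogenetic against fertilized cells the test called 2 of the 5 higher and 2 lower, beside 20.3% in each direction. One of the higher calls was Rtl8a, which neither group detected, so it is no measured rise. Ldoc1 rose by 0.53 and Rtl6 fell by 0.42, both opposite to their values in androgenetic cells. Ldoc1, Rtl8a and Rtl8b lie on chromosome X, and the labelled sex of parthenogenetic cells differs from that of the other groups. For these genes sex and parental origin cannot be told apart in comparisons with parthenogenetic cells. In androgenetic against parthenogenetic cells 4 rose and 1 fell, beside 34% and 37.1%. Of the 3 paraoxonases, Pon2 was the one measured.

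The members were then set beside all other named genes by profile. The distance is the root mean square, over the 8 arrays, of the difference between log2 values after each gene was centred on its mean. The gene closest to the brightest Mest probe was Peg3, a zinc finger gene, at 0.17. It was followed at a distance by Bcl6, a transcriptional repressor (0.71), the growth factor gene Igf2 (0.73), Nnat, a proteolipid gene (0.73), and Gata6, an endoderm regulator (0.76). Peg3 was also closest to each of the dimmer Mest probes, at 0.41 and 0.31.

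Peg10 was closest to Axin2, a feedback inhibitor of WNT signalling (0.16), then to Igfbp4, which binds insulin-like growth factors (0.17), Foxq1, a forkhead factor (0.18), the linker histone gene H1f2 (0.21) and Rab32, a small GTPase (0.22). Pon2 was closest to Hmgn3, which encodes a nucleosome-binding protein (0.13), the cytochrome gene Cyp1b1 (0.13), Napa, a membrane fusion factor (0.16), Ly6h (0.17) and Ccn4, a matricellular protein gene (0.18). Between members, the distance was 0.83 for Mest and Peg10, 0.81 for Peg10 and Pon2 and 1.63 for Mest and Pon2. Among 8220 genes Peg10 ranked 9 in closeness to the brightest Mest probe, 6 to ILMN_2642417 and 4 to ILMN_2642418, where its distance was 0.55. Counted from Peg10, Mest ranked 242. With 8 arrays in 3 groups, these distances describe mostly the group means.

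**Figure D5:**
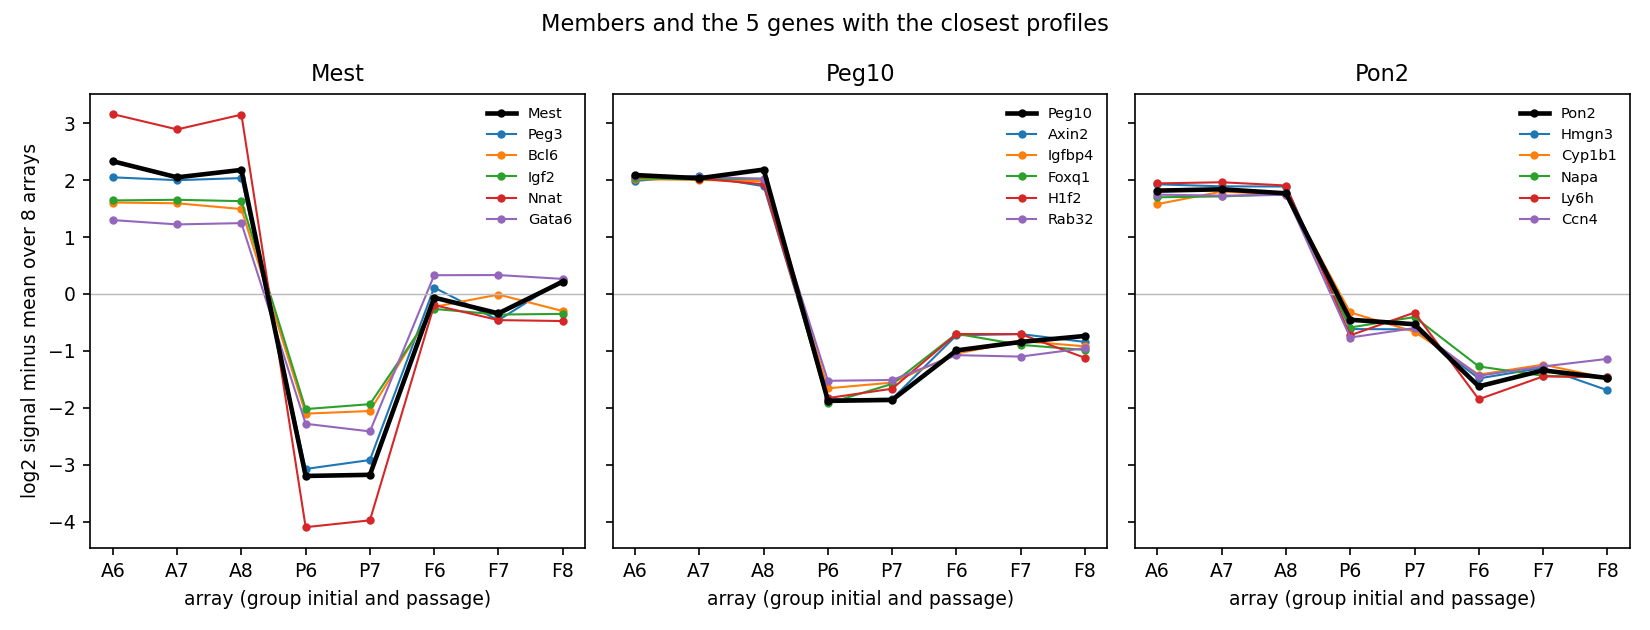
Log2 signal of Mest, Peg10 and Pon2 (black) and of the 5 genes nearest to each (coloured), centred on each gene's mean, for the androgenetic (A), parthenogenetic (P) and fertilized (F) arrays by passage. Peg3 follows Mest at a root mean square distance of 0.17, whereas the next gene lies at 0.71.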

How the data were processed

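RNA of 8 samples was read on single-colour Illumina arrays. The authors deposited a table of linear intensity per probe, with no normalization visible, and beside it a detection p-value in steps of 1 in 798, read with BeadStudio 3.1.3 per the submitters' processing notes. A separate deposited table holds log2 values of 12891 probes, quantile normalized as its equal columns show. It served as an alternative. Median signals ran from 127 to 167 per array, and 41.3% to 43.5% of probes were detected. The number of arrays limits the precision.

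Intensities were corrected and normalized with neqc (limma 3.58.1, R 4.3.3), with background from the detection p-values and an offset of 16, which compresses changes of dim probes. The filter on dim probes asked for detection (p under 0.01) on 2 or more of the 8 arrays. One limma model over all arrays (5 residual degrees of freedom) gave moderated two-sided tests, adjusted by Benjamini-Hochberg over the 12300 kept probes, with a threshold of 0.05. In simulated data of those 12300 probes, 200 were changed and noise was independent. The step recovered 92.9% of 2-fold and 98% of 4-fold changes in androgenetic against fertilized cells. It recovered 85.7% and 98.9% in parthenogenetic against fertilized, and 84.8% and 98.9% in androgenetic against parthenogenetic cells. False calls numbered 9, 6 and 12 in that order. Far more probes than 200 were called in the real comparisons, so these rates describe the simulated setting alone.

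Names came from the platform annotation, which gives 1 symbol for 12145 probes, updated through RefSeq gene identifiers. It covers the deposited log2 table alone, so probes outside it have no name here. Genes with several probes are given by the brightest. A fold against a group that detected nothing is a bound within this normalization, and other settings can give smaller changes. Same-numbered samples of different groups did not deviate together (residual correlations of same-numbered arrays between -0.090 and 0.067).

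Named were all member probes, the measured neighbours, Gag-derived genes and paraoxonases, COPI genes, the 5 closest profiles per member, and defining markers. Members and lists were chosen with earlier results of these data known. Alternatives varied background, offset, scaling, filter, samples in the fit, block and array weights.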

Additional observations from a re-analysis of the deposited data

How the results depend on the processing

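All 246 recomputed changes of the 5 member probes kept their direction and their side of the threshold, over 9 alternatives and 8 arrays left out in turn. Detection on all 8 arrays removed the dimmer Mest probes and Peg10, so these gave no value there. With no array left out, the log2 change of the brightest Mest probe ran from 2.15 to 2.25 in androgenetic and from -3.12 to -2.40 in parthenogenetic against fertilized cells, and for Peg10 from 2.48 to 3.07 in androgenetic against fertilized cells. For Peg10 it ran from -1.01 to -0.60 in parthenogenetic against fertilized and from 3.08 to 3.97 in androgenetic against parthenogenetic cells. In these ranges the value nearest 0 was that without background correction. With the replicate number as a block, the changes in androgenetic against fertilized cells were 2.25 for Mest, 2.96 for Peg10 and 3.29 for Pon2, and the block called 9012 probes there, against 9099 without it. It changed no call of a member. In parthenogenetic against fertilized cells 4883 probes were called, 2420 higher and 2463 lower. With 1 array left out the counts ran from 3066 to 5394 in all, 1493 to 2620 higher and 1573 to 2774 lower, lowest without parthenogenetic replicate 1 (3066) or 2 (3126), which leaves 1 parthenogenetic array assumed to vary like the other groups. Signal over background limits Peg10 and Mest in parthenogenetic cells, where both lie at the detection limit.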

Other observations

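Probes of Copg1, the paralogue of Copg2, disagreed. The brightest (ILMN_3154007) averaged 10.33 ± 0.029 in androgenetic, 9.71 ± 0.046 in parthenogenetic and 9.81 ± 0.47 in fertilized cells (log2 signal, SD, n = 3, 2 and 3). Probe ILMN_3074952 averaged 8.69, 8.28 and 7.15 in the same order and was higher in both uniparental kinds, by 1.54 and 1.13 on the log2 scale (limma adjusted p = 8.60e-07 and 9.59e-05). Probe ILMN_1233848 rose likewise, by 1.46 and 1.03, whereas ILMN_2596412 had -0.045 and 0.059 and passed in neither comparison. All 4 probes of Copz2, of which ILMN_1237090 is the dimmest, fell in both kinds of uniparental cells, by 0.87 to 1.87 in androgenetic and by 0.83 to 1.37 in parthenogenetic against fertilized cells.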
